A study of Mus musculus with 12 samples.

Results

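Glutathione, the main thiol of the cell, is built, spent, recycled and broken down by a small set of proteins, and 8 of their genes are described here in cultured mouse cardiac fibroblasts exposed to the compound MCB-613-10-1. The genes were taken by symbol from the deposited tables, which hold 29030 genes in all, and they are Slc7a11, Gclc, Gclm, Gss, Gsr, Glrx, Chac1 and Chac2. All 8 were present in the tables of both times and passed the filter on low counts. Primary fibroblasts from hearts of C57BL/6 mice were given ethanol vehicle or 6 µM MCB-613-10-1 and harvested after 4 h or 24 h, and the labels give all groups the same strain, tissue and serum-containing medium and name no gene alteration. Each of the 4 groups (vehicle at 4 h, treated at 4 h, vehicle at 24 h, treated at 24 h) held 3 libraries. The labels do not give the age or number of the mice, nor whether the replicates were separate cultures, so the p-values measure the spread between these libraries, which may be technical.

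Glutathione synthesis begins with cystine, which enters the cell through an antiporter whose transport subunit is encoded by Slc7a11. Glutamate cysteine ligase, made of the catalytic subunit Gclc and the modifier subunit Gclm, joins glutamate to cysteine, and glutathione synthetase (Gss) adds glycine. Glutathione reductase (Gsr) returns the oxidised form to the reduced form with NADPH, glutaredoxin (Glrx) removes glutathione from protein thiols, and the cyclotransferases Chac1 and Chac2 split glutathione inside the cell. Several of these genes are known targets of NRF2, a transcription factor that is stabilised by oxidants and electrophiles and is named in the series title, while Chac1 is known as a target of the ATF4 arm of the integrated stress response, and Slc7a11 answers to both.

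Library totals ran from 25016754 to 34877090 counts. Pearson's r of log2 CPM over genes was 0.986 to 0.992 for any pair of libraries from the same group. For a vehicle and a treated library it was 0.980 to 0.988 at 4 h and 0.914 to 0.928 at 24 h. All 10 fibroblast markers examined were detected, and their summed level was 14400 to 20000 CPM in the vehicle groups and the 4 h treated group but 6990 to 7320 CPM in the 24 h treated group. The 7 macrophage and leukocyte markers summed to 94.5 to 101 CPM in vehicle and 67.3 to 86.6 CPM in treated libraries at 4 h, and to 316 to 366 and 153 to 172 CPM at 24 h. Most of each sum was Lyz2, which averaged 65.74 and 43.95 CPM at 4 h and 269 and 97.2 CPM at 24 h. Endothelial markers lay between 40.3 and 56.8 CPM in sum, pericyte and smooth muscle markers between 8.82 and 85.0, and epicardial and mesothelial markers between 30.1 and 90.9. Cardiomyocyte markers, 6 of 7 with a group mean under 1 CPM, summed to 5.67 to 21.9 CPM, and Schwann cell markers did not exceed 1.12 CPM. In bulk RNA, fewer cells of a type and less RNA per cell cannot be told apart, and the part of these shifts in the results below was not tested.

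Promoter sequence was at hand for 6 of the 8 genes, as RefSeq windows of 300 bases on GRCm38.p6 that run from 250 bases before to 50 bases after the annotated start. Those of Slc7a11, Chac1 and Gclm are shown because these genes had the largest responses of the 8, and the first pair shares a motif. Capitals mark matches on either strand to TGANGCAA, letters that cover forms of the composite site of C/EBP and ATF factors, and to TGACNNNGC or TGAGNNNGC, the core of the antioxidant response element that NRF2 binds.
Slc7a11, chr3:50443564-50443863, minus strand: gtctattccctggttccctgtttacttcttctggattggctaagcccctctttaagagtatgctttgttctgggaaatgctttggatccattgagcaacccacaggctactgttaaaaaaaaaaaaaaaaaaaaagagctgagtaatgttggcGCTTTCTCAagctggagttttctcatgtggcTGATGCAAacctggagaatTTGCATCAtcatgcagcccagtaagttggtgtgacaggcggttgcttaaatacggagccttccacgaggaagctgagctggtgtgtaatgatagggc
Chac1, chr2:119350992-119351291, plus strand: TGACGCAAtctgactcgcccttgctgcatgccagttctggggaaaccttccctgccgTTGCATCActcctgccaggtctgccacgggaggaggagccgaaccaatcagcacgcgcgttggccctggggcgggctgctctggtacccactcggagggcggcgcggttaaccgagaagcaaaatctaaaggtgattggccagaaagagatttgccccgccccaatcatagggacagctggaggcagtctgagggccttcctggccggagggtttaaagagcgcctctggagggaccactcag
Gclm, chr3:122245307-122245606, plus strand: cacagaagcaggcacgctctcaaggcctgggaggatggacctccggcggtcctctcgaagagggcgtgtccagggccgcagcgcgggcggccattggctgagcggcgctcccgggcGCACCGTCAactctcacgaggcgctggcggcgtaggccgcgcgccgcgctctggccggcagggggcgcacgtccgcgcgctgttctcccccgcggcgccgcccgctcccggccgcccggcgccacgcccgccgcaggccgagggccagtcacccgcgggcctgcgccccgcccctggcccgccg

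The windows of Slc7a11 and Chac1 each held 2 matches to TGANGCAA, in opposite orientation. In Slc7a11 they lay 66 to 59 and 47 to 40 bases before the start, and in Chac1 250 to 243 and 193 to 186 bases before it. Of all 32851 windows in the table, 3.69% held at least 1 match and 0.125% held 2 or more. The windows of Gclm, Gss, Glrx and Chac2 held none. The TGAGNNNGC form matched once in Slc7a11, 97 to 89 bases before the start, and the TGACNNNGC form once in Gclm, 134 to 126 bases before it, and neither form matched in Gss, Glrx, Chac1 or Chac2. These forms are common, since 17.6% and 12.4% of all windows held them and 27.8% held either. No searched motif overlapped another in these windows. The letters were chosen with the windows in view, and a match describes the sequence and not a bound site.

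The RNA of the cystine transport subunit was among the strongest responses. Slc7a11 (ENSMUSG00000027737, GRCm39 chromosome 3, 49846975 to 50398063, minus strand) stood at 76.0, 54.0 and 52.3 CPM in the 3 vehicle libraries at 4 h and at 340.5, 304.4 and 324.8 CPM in the treated ones. At 24 h the vehicle libraries held 23.8, 22.8 and 20.6 CPM and the treated libraries 352.4, 376.9 and 357.1 CPM. The groups were far apart at both times, and the vehicle library of replicate 1 was the highest of its group at 4 h. The log2 fold change was 2.41 (SE 0.14, edgeR adjusted p = 1.66e-06) at 4 h and 4.01 (SE 0.06, adjusted p = 1.2e-20) at 24 h, that is 5.31-fold and 16.1-fold. It ranked 11th from the top of 15336 genes tested at 4 h and 124th of 15575 at 24 h. Gene models that overlap Slc7a11 had at most 47 counts over the 12 libraries, against 62670 for Slc7a11.

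Of the 8 genes, 5 rose at 4 h and 0 fell (1, Chac2, was lower at an unadjusted p under 0.05), and at 24 h 6 rose and 1 fell. Over all tested genes 7.16% were called at 4 h (edgeR adjusted p under 0.05), 3.45% higher and 3.71% lower, while at 24 h 74.7% were called, 36.7% higher and 38.0% lower. Higher genes made up 48.2% of the called at 4 h and 49.1% at 24 h, and 34.5% and 39.0% when scaled by library totals. The share of the 8 genes called at 24 h is near the background. The median log2 fold change of the 8 was 1.12 at 4 h and 1.63 at 24 h, beside -0.01 and -0.02 over all genes.

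**Figure D1:**
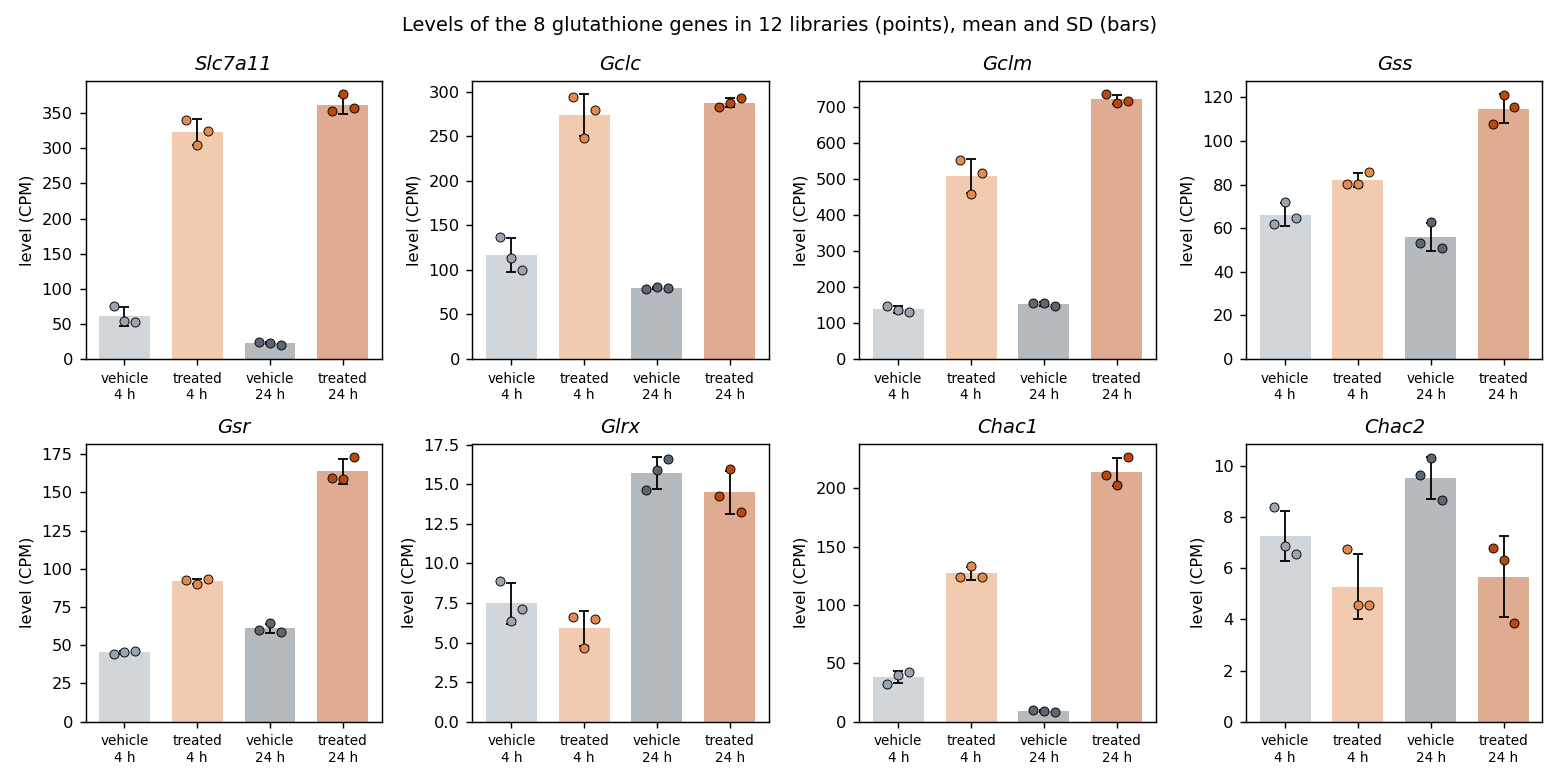
Level of each of the 8 genes (CPM, scaled over all 12 libraries) in vehicle and treated fibroblasts at 4 h and 24 h. Points are the 3 libraries of a group, bars the mean and whiskers the SD. For Slc7a11, Gclc, Gclm, Gss, Gsr and Chac1 every treated library lies above every vehicle library at both times, although Gss was not called at 4 h. Of all genes 7.16% were called at 4 h and 74.7% at 24 h, while the share separated this way was not counted. The vehicle level of Slc7a11 and Chac1 is lower at 24 h than at 4 h.

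The RNA of both subunits of glutamate cysteine ligase rose. The catalytic subunit Gclc (ENSMUSG00000032350, chromosome 9, 77661817 to 77701767, plus strand) was at 137, 113 and 100.1 CPM in vehicle and 294, 248 and 279 CPM in treated libraries at 4 h. At 24 h it was at 79.1, 81.0 and 80.2 CPM in vehicle and 283, 287 and 293 CPM in treated libraries. The groups did not overlap, and the 24 h vehicle libraries were the tightest of all. The log2 fold change was 1.23 (SE 0.12, edgeR adjusted p = 8.12e-05) at 4 h and 1.84 (SE 0.04, adjusted p = 1.93e-17) at 24 h.

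The modifier subunit Gclm (ENSMUSG00000028124, chromosome 3, 122039206 to 122064381, plus strand) was at 147.5, 135.5 and 129 CPM in vehicle and 551, 457 and 515 CPM in treated libraries at 4 h. At 24 h the values were 155, 155 and 148 CPM in vehicle and 734, 709.5 and 716 CPM in treated libraries. Gclm therefore reached the highest CPM of the 8 genes in every group, before any scaling for gene length. Per kilobase of gene model, Gclc was higher in vehicle at 4 h (31.1 against 21.9 for Gclm). In treated libraries at 24 h Chac1 was higher per kilobase (131 against 114 for Gclm). The treated and vehicle libraries of Gclm were well separated. Its log2 fold change was 1.88 (SE 0.10, edgeR adjusted p = 7.58e-07) at 4 h and 2.23 (SE 0.05, adjusted p = 1.9e-18) at 24 h.

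The RNA of glutathione synthetase, which completes the molecule, was called at 24 h and not at 4 h. Gss (ENSMUSG00000027610, chromosome 2, 155405101 to 155434730, minus strand) was at 61.9, 72.1 and 64.6 CPM in vehicle and 80.1, 80.4 and 85.7 CPM in treated libraries at 4 h. Although these groups did not overlap, the log2 fold change of 0.31 (SE 0.09) was not called (edgeR adjusted p = 0.0568). At 24 h it went from 53.3, 63.1 and 51.1 CPM to 108, 121 and 116 CPM, a log2 fold change of 1.04 (SE 0.07, adjusted p = 3.8e-09). The 4 h value lay close to the threshold: it was called with DESeq2 (0.0313), without a filter of low counts (0.0424), with all 12 libraries in the fit (0.0186), and without vehicle replicate 1 or 2 (0.038 and 0.0475), and the authors' deposited table gave 0.0313. Gss overlaps Acss2 on the other strand (1327 counts against 27156 for Gss over the 12 libraries), and without a stated strand setting their shared reads cannot be assigned.

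**Figure D2:**
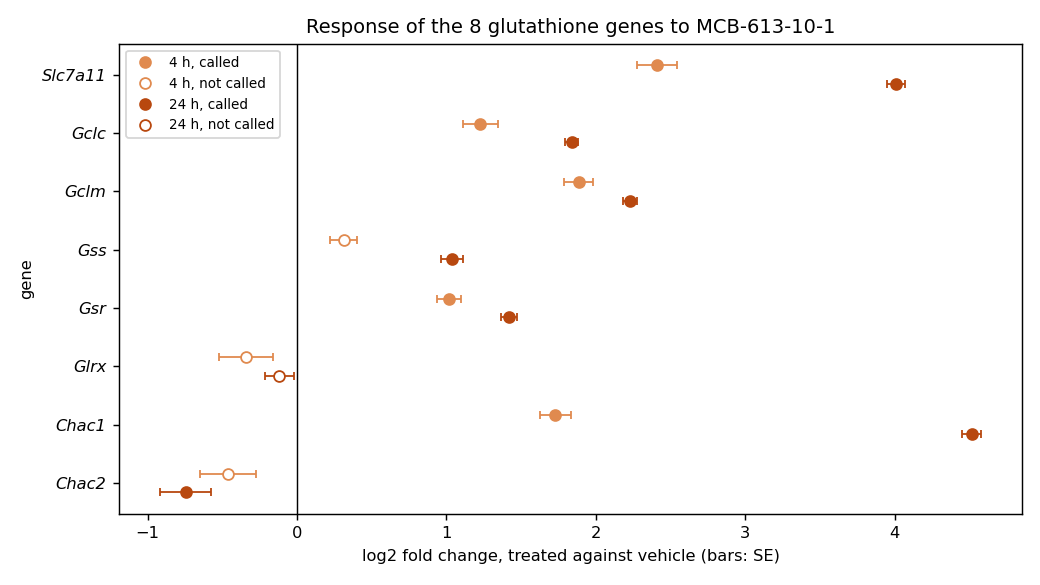
Log2 fold change of each gene, treated against vehicle, at 4 h and at 24 h, with the SE as bars. Filled points were called (edgeR adjusted p under 0.05) and open points were not. Slc7a11 and Chac1 lie farthest to the right at 24 h (4.01 and 4.52), while Chac2 lies to the left of 0 (-0.75).

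Of the recycling genes, the reductase rose and the glutaredoxin was not called. Gsr (ENSMUSG00000031584, chromosome 8, 34142551 to 34188191, plus strand) went from 44.2, 45.6 and 46.5 CPM in vehicle to 92.4, 90.0 and 93.3 CPM in treated libraries at 4 h. At 24 h it went from 59.9, 64.5 and 58.8 CPM to 159.2, 159.0 and 173 CPM. Libraries of a group were close to each other and the groups were clearly apart. The log2 fold change was 1.02 (SE 0.08, edgeR adjusted p = 2.37e-05) at 4 h and 1.42 (SE 0.05, adjusted p = 7.02e-15) at 24 h.

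Glrx (ENSMUSG00000021591, chromosome 13, 75987987 to 75998273, plus strand) was at 8.90, 6.39 and 7.11 CPM in vehicle and 6.59, 4.63 and 6.48 CPM in treated libraries at 4 h, and at 14.6, 15.9 and 16.6 CPM in vehicle and 14.2, 16.0 and 13.3 CPM in treated libraries at 24 h. The groups overlapped at both times. Its log2 fold change was -0.34 (95% interval -0.73 to 0.05, edgeR adjusted p = 0.285) at 4 h and -0.12 (-0.33 to 0.09, adjusted p = 0.282) at 24 h. These intervals do not reach the rise seen in Gsr. When scaled by library totals the 24 h value was -0.31 and passed the threshold (adjusted p = 0.0103).

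The breakdown genes moved in opposite directions at 24 h. Chac1 (ENSMUSG00000027313, chromosome 2, 119181710 to 119184862, plus strand) was at 32.8, 40.2 and 42.4 CPM in vehicle and 124.3, 133.7 and 124.1 CPM in treated libraries at 4 h. At 24 h it was at 9.83, 9.50 and 8.58 CPM in vehicle and 212, 203 and 227 CPM in treated libraries. Its log2 fold change was 1.73 (SE 0.11, edgeR adjusted p = 2.88e-06) at 4 h and 4.52 (SE 0.07, adjusted p = 1.2e-20) at 24 h, or 3.31-fold and 22.9-fold. The 24 h response was the largest of the 8 and ranked 88th of 15575 genes.

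Chac2 (ENSMUSG00000020309, chromosome 11, 30926707 to 30936350, minus strand) was at 8.38, 6.86 and 6.57 CPM in vehicle and 6.74, 4.56 and 4.54 CPM in treated libraries at 4 h, where the groups overlapped (log2 fold change -0.46, SE 0.18, edgeR adjusted p = 0.16). At 24 h it was at 9.64, 10.3 and 8.67 CPM in vehicle and 6.81, 6.34 and 3.86 CPM in treated libraries, without overlap. The fall at 24 h was 0.75 on the log2 scale (log2 fold change -0.75, SE 0.17, adjusted p = 9.0e-04). Counts were low, from 87 to 358 per library, and Chac2 overlaps Asb3 on the other strand, which held 6660 counts against 2491 for Chac2. The macrophage and leukocyte markers, none of them at 0, also moved between these groups, 2 of 7 higher (Csf1r and Cd14) and 5 lower. Their summed level was 316 to 366 CPM in vehicle and 153 to 172 CPM in treated libraries, of which Lyz2 alone averaged 269 and 97.2 CPM. The fibroblast markers, 1 of 10 higher and 8 lower, summed to 16200 to 20000 and 6990 to 7320 CPM. The part of either in the fall of Chac2 was not tested.

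The response of 6 of the 8 genes was larger at 24 h than at 4 h, while 53.8% of all genes were called in this interaction, 26.7% higher and 27.1% lower (edgeR, 16341 genes tested over the 12 libraries). Higher genes were 49.6% of the called, and 40.0% when scaled by library totals. The difference was largest for Chac1, at 2.79 on the log2 scale (SE 0.13, adjusted p = 1.2e-11), then for Slc7a11 at 1.61 (SE 0.16, adjusted p = 2.89e-07). Gss (0.73, adjusted p = 4.34e-05), Gclc (0.62, 0.000515), Gsr (0.41, 0.00113) and Gclm (0.35, 0.00736) followed. That of Gclm was not called when scaled by library totals (0.21, adjusted p = 0.115), and that of Gsr was then 0.26 (adjusted p = 0.02). No difference was called for Glrx (0.23, 95% interval -0.21 to 0.66) or Chac2 (-0.28, -0.85 to 0.29).

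For Slc7a11 and Gclc the vehicle level fell between the times, while no change was called in the treated libraries. Treated libraries held a mean of 323 ± 18.1 CPM of Slc7a11 at 4 h and 362 ± 13.0 CPM at 24 h (SD, n = 3 each), a log2 change of 0.16 (95% interval -0.06 to 0.39, edgeR adjusted p = 0.196), whereas vehicle libraries fell from 60.8 ± 13.2 to 22.4 ± 1.62 CPM, a log2 change of -1.44 (SE 0.12, adjusted p = 3.72e-08). Gclc in treated libraries was at 274 ± 23.4 and 288 ± 5.03 CPM (log2 change 0.07, 95% interval -0.12 to 0.26, adjusted p = 0.508, and -0.044 when scaled by library totals), and fell in vehicle from 117 ± 18.9 to 80.1 ± 0.97 CPM (log2 change -0.55, adjusted p = 6.63e-05). Without vehicle replicate 1 of 4 h, the library with the highest Slc7a11 and Gclc of its group, the treated change of Slc7a11 was 0.16 and passed the threshold (adjusted p = 0.0159).

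Chac1 moved in both arms. Its vehicle mean fell 4.13-fold, from 38.5 ± 5.05 to 9.30 ± 0.65 CPM (log2 change -2.05, SE 0.10, edgeR adjusted p = 2.02e-11), and its treated mean rose from 127 ± 5.49 to 214 ± 12.1 CPM (log2 change 0.75, SE 0.08, adjusted p = 3.74e-07). Gclm and Gss rose between the times in treated libraries, by 0.50 and 0.49 (adjusted p = 7.37e-06 and 5.78e-05). In vehicle, Gclm stood at 0.15 and was not called (adjusted p = 0.0886), although it was without vehicle replicate 1 of 4 h (0.0125). Gss fell by 0.25 in vehicle (adjusted p = 0.0196), a call that ended without vehicle replicate 2 of 4 h or vehicle replicate 1 or 3 of 24 h (0.108, 0.0915 and 0.119).

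Gsr and Glrx were higher at 24 h in both arms. Gsr rose by 0.43 in vehicle and 0.83 in treated libraries (edgeR adjusted p = 2.8e-05 and 3.05e-09), and Glrx by 1.07 and 1.29 (adjusted p = 5.72e-06 and 4.64e-07). Chac2 was called neither in vehicle (0.39, adjusted p = 0.0871) nor in treated libraries (0.11, adjusted p = 0.656). The vehicle value of Chac2 passed the threshold with the replicate number as a block across the times (0.0337), without vehicle replicate 1 of 4 h (0.0381) and without treated replicate 3 of 24 h (0.0444). Among the 8 genes 2 rose and 4 fell in vehicle, where 54.3% of all genes were called, 27.4% higher and 27.0% lower. In treated libraries 5 rose and 0 fell, where 61.9% were called, 30.0% higher and 31.9% lower (higher genes 48.5% of the called, and 40.4% when scaled by library totals). All 7 macrophage and leukocyte markers rose in vehicle, with a summed level of 94.5 to 101 CPM at 4 h and 316 to 366 CPM at 24 h, mostly Lyz2. The part of these markers was not tested. Harvest time cannot be told apart from other differences between the sets of libraries, and the authors' 24 h table names its groups with a prefix that its 4 h table lacks and the labels do not explain.

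**Figure D3:**
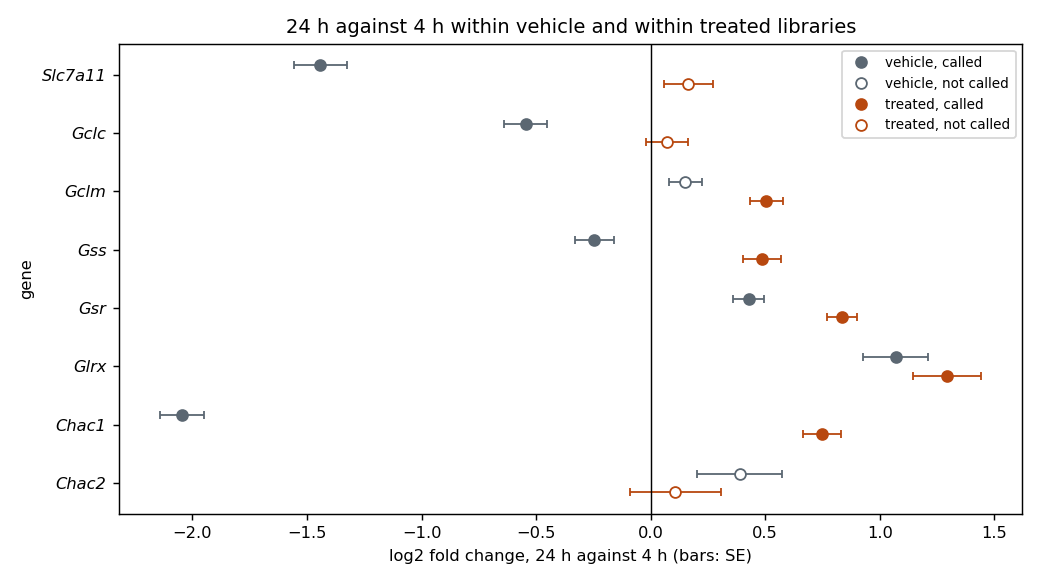
Log2 change of each gene from 4 h to 24 h within vehicle and within treated libraries, with the SE as bars. Filled points were called and open points were not. Chac1 and Slc7a11 are far to the left of 0 in vehicle (-2.05 and -1.44) and at 0.75 and 0.16 in treated libraries.

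In RNA, the ratio of the modifier to the catalytic subunit of the ligase was higher in treated than in vehicle libraries of the same time. The ratio of Gclm to Gclc, as counts per kilobase within a library, was 0.643, 0.716 and 0.774 in vehicle and 1.12, 1.10 and 1.10 in treated libraries at 4 h. At 24 h it was 1.18, 1.15 and 1.10 in vehicle and 1.55, 1.48 and 1.46 in treated libraries. Every treated library was above every vehicle library of its time, and the 24 h vehicle libraries were at the height of the 4 h treated ones. The difference in log2 ratio was 0.65 at 4 h and 0.39 at 24 h (two-sided exact permutation test, p = 0.1 at each time, which is the smallest p that 3 against 3 libraries allow). This ratio does not depend on library scaling.

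**Figure D4:**
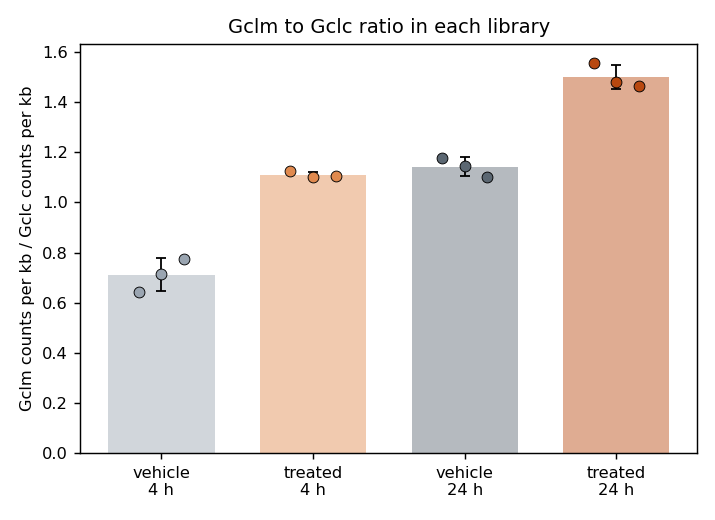
Ratio of Gclm to Gclc counts per kilobase in each library (points), with the mean of the 3 libraries as bars and the SD as whiskers. The means are 0.711 and 1.11 in vehicle and treated libraries at 4 h, and 1.14 and 1.5 at 24 h.

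Levels can be compared between genes only per length, taken here from the gene model (13922 bases for Slc7a11, 5494 for Glrx). The order depends on these lengths, and the length of the RNA made in these cells was not measured. Per kilobase of gene model, the vehicle libraries at 4 h were led by Gclc (31.1 ± 5.03 CPM per kilobase, SD, n = 3), followed by Chac1 (23.5 ± 3.08), Gclm (21.9 ± 1.47), Gsr (16.5 ± 0.41), Gss (11.2 ± 0.89), Chac2 (5.53 ± 0.74), Slc7a11 (4.37 ± 0.95) and Glrx (1.36 ± 0.24). The neighbours Chac1 and Gclm, and Chac2 and Slc7a11, were within their spread of each other. In treated libraries at 24 h the order was Chac1 (131 ± 7.44), Gclm (114 ± 2.03), Gclc (76.4 ± 1.34), Gsr (59.5 ± 2.93), Slc7a11 (26.0 ± 0.93), Gss (19.4 ± 1.11), Chac2 (4.31 ± 1.21) and Glrx (2.64 ± 0.25). In the 24 h vehicle libraries Chac1 was at 5.68 ± 0.40, below Gclm (24.3 ± 0.69), Gsr (22.2 ± 1.10), Gclc (21.3 ± 0.26), Gss (9.44 ± 1.07) and Chac2 (7.25 ± 0.62). Gsr and Gclc were within their spread of each other there, and only Glrx (2.86 ± 0.18) and Slc7a11 (1.61 ± 0.12) were lower than Chac1. The order at 4 h in treated libraries was Gclm (80.7 ± 7.56), Chac1 (77.8 ± 3.37) and Gclc (72.7 ± 6.21), which lay within their spread, then Gsr (33.4 ± 0.62), Slc7a11 (23.2 ± 1.30), Gss (13.9 ± 0.53), Chac2 (4.01 ± 0.96) and Glrx (1.07 ± 0.20).

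Other genes of glutathione metabolism were listed by role. Of 34 listed, 29 passed the filter at each time. At 4 h 5 rose and 0 fell (2 were lower at an unadjusted p under 0.05, and 0 were called lower by DESeq2; median log2 fold change 0.09, beside -0.01 over all genes), and at 24 h 12 rose and 8 fell (median 0.06, beside -0.02), again against 3.45% of all genes higher at 4 h and 36.7% higher and 38.0% lower at 24 h.

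Of 4 tested genes of cystine and cysteine supply, 2 rose at 4 h and 3 at 24 h, beside 3.45% and 36.7% of all genes. Slc3a2, the heavy chain that pairs with the Slc7a11 protein, went from 343 ± 47.9 to 596 ± 23.3 CPM at 4 h (log2 fold change 0.80, SE 0.10, edgeR adjusted p = 0.000843) and from 254 ± 18.2 to 1141 ± 70.0 CPM at 24 h (2.16, SE 0.06, adjusted p = 3.53e-16; SD, n = 3 each). Slc1a4, a neutral amino acid transporter, rose by 0.65 and 1.04 (adjusted p = 0.00194 and 7.31e-12). Cth, which releases cysteine from cystathionine, was not called at 4 h (0.22, adjusted p = 0.354) and rose 9.45-fold at 24 h, from 2.75 ± 0.13 to 26.2 ± 1.00 CPM (3.24, SE 0.11, adjusted p = 1.58e-15). Cbs, the enzyme before it, was not called at either time.

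The 5 tested genes of the glutathione peroxidase family were all called lower in treated than in vehicle libraries at 24 h, as were 38.0% of all genes. None was called at 4 h by edgeR in the 6 libraries of that time or by DESeq2 (1, Gpx4, was under 0.05 before adjustment). The share called by edgeR over all genes at 4 h was 7.16%. Gpx4 was called with all 12 libraries in the fit, at -0.26 (adjusted p = 0.0412). Gpx3, a secreted enzyme, went from 206 ± 37.2 to 64.9 ± 5.05 CPM at 24 h (log2 fold change -1.68, SE 0.17, adjusted p = 0.000619; SD, n = 3 each). Gpx7, an enzyme of the endoplasmic reticulum, stood at -1.20 (adjusted p = 8.61e-11), Gpx1 at -0.93 (0.000471), Gpx8 at -0.42 (5.12e-08) and Gpx4, which acts on lipid peroxides, at -0.38 (3.66e-07). The value of Gpx4 was -0.57 when scaled by library totals. These are differences from the 24 h vehicle libraries, in which all 5 genes were higher than in vehicle at 4 h, by 0.94 for Gpx3, 0.95 for Gpx7, 0.81 for Gpx1, 0.47 for Gpx8 and 0.69 for Gpx4 on the log2 scale (edgeR adjusted p = 1.01e-06, 1.47e-07, 0.000142, 0.000405 and 1.4e-06). Between the vehicle groups 27.4% of all genes were called higher at 24 h. In treated libraries Gpx3 fell between the times (-0.81, adjusted p = 3.43e-06) and Gpx4 rose (0.58, 6.39e-06), while Gpx1, Gpx7 and Gpx8 were not called (-0.04, -0.15 and 0.16). Of the 10 fibroblast markers 8 fell between the 24 h groups, and their part was not tested.

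**Figure D5:**
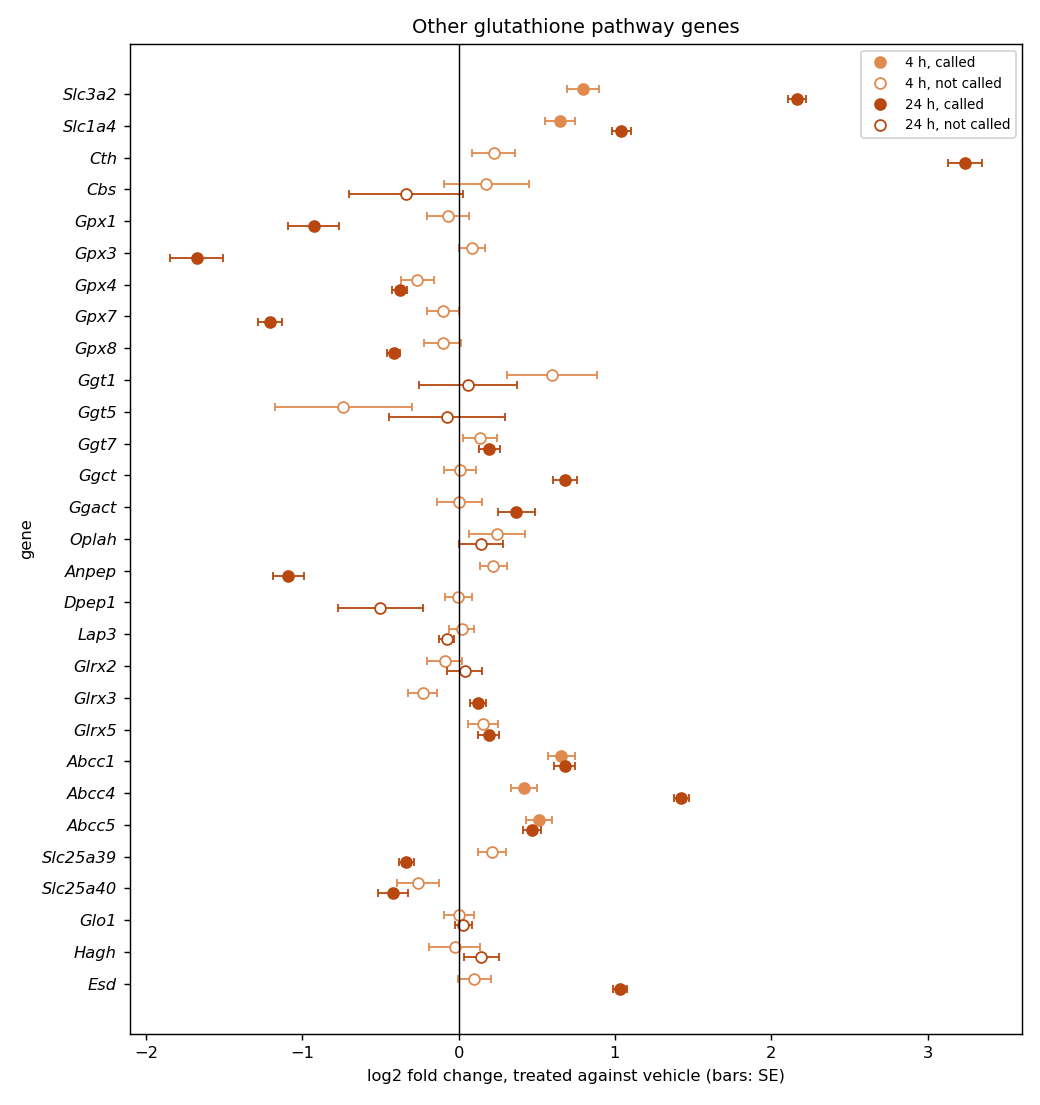
Log2 fold change, treated against vehicle, of the 29 other glutathione pathway genes tested, at 4 h and at 24 h, with the SE as bars. Filled points were called and open points were not. Cth, Slc3a2 and Abcc4 lie farthest to the right at 24 h (3.24, 2.16 and 1.43), and Gpx3, Gpx7 and Anpep farthest to the left (-1.68, -1.20 and -1.09).

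Among transporters that carry glutathione or its conjugates, Abcc1, Abcc4 and Abcc5 rose at both times. Over all tested genes 3.45% were called higher at 4 h, and 36.7% higher and 38.0% lower at 24 h. Abcc4 stood at 0.42 at 4 h and 1.43 at 24 h (edgeR adjusted p = 0.0107 and 3.43e-15), Abcc1 at 0.66 and 0.68 (0.000888 and 8.6e-07) and Abcc5 at 0.51 and 0.47 (0.00375 and 3.64e-07), with a 24 h value of 0.28 for Abcc5 when scaled by library totals. The 4 h call of Abcc4 did not hold when 1 library was left out, either vehicle replicate 3 (0.0559) or treated replicate 2 (0.065) or 3 (0.0724). The mitochondrial carriers Slc25a39, known to import glutathione, and Slc25a40 were not called at 4 h and fell at 24 h (-0.33 and -0.42, adjusted p = 5.74e-06 and 0.000765). Slc25a39 stood at -0.53 when scaled by library totals, and Slc25a40 at -0.26 with limma-trend on FPKM. None of the 9 tested genes of the gamma-glutamyl cycle was called at 4 h by edgeR (1, Anpep, was under 0.05 before adjustment), nor by DESeq2. The share called by edgeR over all genes at 4 h was 7.16%. At 24 h Ggct, a cyclotransferase acting on gamma-glutamyl amino acids, rose by 0.68 (8.97e-08), Ggact by 0.37 (0.00927) and Ggt7 by 0.20 (0.0152), while Anpep, a surface aminopeptidase, fell by 1.09 on the log2 scale (5.66e-07). Ggact overlaps Pcca on the other strand (4476 counts against 3461 for Ggact) and Ggt7 overlaps Acss2, so both values are uncertain. Neither was called when scaled by library totals (0.18, adjusted p = 0.192 for Ggact, and 0.0034, adjusted p = 0.968 for Ggt7).

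The remaining calls were small apart from Esd. Glrx3 and Glrx5, glutaredoxins that act with iron-sulfur clusters, rose at 24 h by 0.12 and 0.19 (edgeR adjusted p = 0.0341 and 0.0169), and stood at -0.071 and -0.003 when scaled by library totals. Esd, which hydrolyses the glutathione thioester of formate, rose by 1.03 at 24 h (adjusted p = 1.49e-13), and the glyoxalase genes Glo1 and Hagh were not called. The calls of Glrx3, Glrx5 and Ggt7 each ended without some single libraries: Glrx3 when vehicle replicate 1 (0.117) or 3 (0.13) or treated replicate 2 (0.102) or 3 (0.128) was removed, Glrx5 when vehicle replicate 1 (0.0783) or treated replicate 3 (0.094) was removed, and Ggt7 when vehicle replicate 3 (0.0678), treated replicate 1 (0.0522) or treated replicate 2 (0.0515) was removed. That of Ggact ended without vehicle replicate 1 (0.0786). Other fits ended them too: the fit of all 12 libraries for Glrx3 (0.151), Glrx5 (0.0537) and Ggt7 (0.0522), limma-trend on FPKM for Glrx3 (0.0956) and Glrx5 (0.0606), no filter of low counts for Glrx3 (0.0942) and Ggt7 (0.0611), and DESeq2 for Glrx3 (0.0565).

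The regulators known for these genes were measured in the same libraries. Nfe2l2, which encodes NRF2, was at 172 ± 14.7 and 186 ± 9.62 CPM in vehicle and treated libraries at 4 h (SD, n = 3 each; log2 fold change 0.12, edgeR adjusted p = 0.472), and at 165 ± 1.20 and 207 ± 1.99 CPM at 24 h (0.32, adjusted p = 1.18e-06). When scaled by library totals the 24 h value of Nfe2l2 was 0.13 (adjusted p = 0.0108). Bach1, a repressor that competes with NRF2 for its sites, stood at 0.36 at 4 h (adjusted p = 0.0655) and rose by 1.27 at 24 h (1.9e-14). Keap1, which directs NRF2 to degradation, rose by 0.43 and 0.52 (0.0339 and 1.63e-08), and its 24 h value was 0.33 when scaled by library totals. The 4 h value of Bach1 passed the threshold without vehicle replicate 1 (0.00039), with DESeq2 (0.0282), without a filter of low counts (0.014), with all 12 libraries in the fit (0.00892) and with the replicate number as a block (0.0195). Keap1 lost its 4 h call when vehicle replicate 3 (0.0591), treated replicate 2 (0.173) or treated replicate 3 (0.144) was left out, with library totals (0.0531) and with limma-trend on FPKM (0.0673).

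All 4 factors of the integrated stress response fell in vehicle from 4 h to 24 h. The log2 changes were -0.83 for Atf4, -1.02 for Ddit3, -2.46 for Atf3 and -0.70 for Trib3 (edgeR adjusted p = 1.75e-05, 8.34e-07, 2.27e-13 and 3.98e-06). In the same contrast Bach1 fell (-0.50, edgeR adjusted p = 8.58e-05), Keap1 rose (0.46, 0.000146) and Nfe2l2 was not called (-0.06, 0.466). Among the 8 glutathione genes 2 rose and 4 fell. Of all genes 54.3% were called there, 27.4% higher and 27.0% lower. Atf4 was at 378 ± 81.1 and 476 ± 6.00 CPM in vehicle and treated libraries at 4 h (SD, n = 3 each; log2 fold change 0.33, edgeR adjusted p = 0.164) and at 212 ± 9.93 and 597 ± 31.1 CPM at 24 h (1.49, adjusted p = 1.91e-15). The 4 h vehicle libraries of Atf4 spanned 286 to 439.7 CPM, and its 4 h value was 0.17 without vehicle replicate 1 and 0.46 without vehicle replicate 2, called in neither. Atf3 went from 51.7 ± 3.87 to 80.6 ± 2.54 CPM at 4 h and from 9.38 ± 0.38 to 322 ± 21.8 CPM at 24 h (log2 fold changes 0.64 and 5.09, adjusted p = 0.00119 and 1.94e-21). Ddit3, which encodes CHOP, rose by 0.51 and 2.56 (0.0199 and 2.32e-08), and Trib3, a pseudokinase of the same response, by 1.24 and 3.05 (4.7e-05 and 6.99e-19). Ddit3 lost its 4 h call when vehicle replicate 3 (0.0612) or any treated replicate (0.0711, 0.104 and 0.0694) was left out and with limma-trend on FPKM (0.052). Its gene model overlaps Mars1 on the other strand, with 42769 counts against 68582 for Ddit3.

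Across the 12 libraries, the patterns of the 8 genes can be described by Pearson's r of log2 CPM, with no test because the points share 4 groups. Slc7a11, Gclc and Chac1 correlated with each other at 0.96 or higher. Gclm correlated with Gclc at 0.95, with Gsr at 0.94, with Slc7a11 at 0.93 and with Chac1 at 0.88. Gss had r of 0.88 to 0.92 with Slc7a11, Gclc, Gclm, Gsr and Chac1, while Glrx had r between -0.31 and 0.47 with the other 7. Among 10413 other protein-coding genes, the closest to Slc7a11 were Txnrd1 (thioredoxin reductase, r = 0.996) and Nav3 (0.990), and Nav3 (0.989) and Mdm2 (0.988) were closest to Gclc. Srxn1 (0.994) and Hspa1b (0.993) were closest to Gclm, Tmem222 (0.992) and Ncl (0.988) to Gss, and Dnaja1 (0.992) and Map7d2 (0.989) to Gsr. Chac1 was close to Mafg (0.996), a small MAF factor, and Glrx was closest to Auh (0.990) and Mdh1 (0.986). For Chac2, 3 genes exceeded 0.9, led by Prorsd1 (0.955) and Cd53, a leukocyte surface protein gene (0.911). For the other 7 the number of genes over 0.9 ran from 164 for Gclm to 848 for Gss. The part of the low counts of Chac2 in this was not tested. Chac2 had r between -0.81 and -0.57 with Slc7a11, Gclc, Gclm, Gss, Gsr and Chac1.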

How the data were processed

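RNA sequencing of 12 libraries in 4 groups was analysed from the authors' 2 comparison tables and 2 FPKM tables, 1 of each per time. Per the submitters' processing notes, which give no roles, the tools were featureCounts 1.5.0-p3, HISAT2 2.0.5 and DESeq2, and the build GRCm39. The authors deposited raw read counts, the same counts divided by a size factor per library (a scaled signal, not used), FPKM values, and their own log2 fold change and p-values, per the file headers. FPKM served as an alternative and, at a minimum mean of 1, to choose genes for likeness.

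Counts were tested with edgeR 4.0.16 (limma 3.58.1, R 4.3.3; quasi-likelihood, robust, default filter, TMM, Benjamini-Hochberg over all genes). The response at each time used its own 6 libraries, and the interaction and the contrasts between times all 12, with genes missing from a table entered as 0 counts. A gene was called at adjusted p under 0.05. CPM values were scaled by TMM over all 12 libraries, and log2 CPM used a prior count of 2. DESeq2 1.42.0, limma-trend on log2(FPKM + 1), other scalings, no filter, a replicate block and leaving out each library were alternatives. The scripts were tested on simulated data.

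The genes and lists were chosen with earlier results of these data known. Named are the 8 genes, every called gene of the pathway list, all listed regulators and, for each of the 8, its closest pair by r, of which 1 gene is not reported here. Promoters and their coordinates are RefSeq's on GRCm38.p6, all other coordinates those of the tables on GRCm39. Replicate numbers are from the labels.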

Additional observations from a re-analysis of the deposited data

Results flagged for a closer look

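The response differed between the times for 6 of the 8 genes by the interaction test of edgeR over 12 libraries, all in the direction of a larger response at 24 h. The log2 response at 24 h minus that at 4 h was 2.79 for Chac1 (adjusted p = 1.2e-11), 1.61 for Slc7a11 (2.89e-07), 0.73 for Gss (4.34e-05), 0.62 for Gclc (0.000515), 0.41 for Gsr (0.00113) and 0.35 for Gclm (0.00736). That of Gclm was not called when scaled by library totals (0.21, edgeR adjusted p = 0.115). Of all 16341 genes tested, 53.8% had a called difference. For Chac1, Slc7a11, Gclc and Gss the vehicle level was also called lower at 24 h than at 4 h (log2 changes of -2.05, -1.44, -0.55 and -0.25), whereas for Gsr it was higher (0.43) and for Gclm it was not called (0.15). Between the vehicle groups 27.4% of all genes were called higher and 27.0% lower at 24 h. The vehicle call of Gss ended without vehicle replicate 2 of 4 h or vehicle replicate 1 or 3 of 24 h. With 3 libraries per group, single libraries were not tested as outliers.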

How the results depend on the processing

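The 5 rises at 4 h and the 6 rises and 1 fall at 24 h among the 8 genes held in every alternative run, with 2 kinds of exception: Gss joined the rises at 4 h in some fits, and 2 genes fell at 24 h when scaled by library totals, Chac2 and Glrx. That scaling moved the median log2 fold change of all genes at 24 h from -0.02 to -0.21, and gave -0.143 for the difference between the responses and -0.135 for treated 24 h against 4 h. With library totals, signs turned for Glrx3 (-0.071) and Glrx5 (-0.003) at 24 h, and for Gclc (-0.044) and Chac2 (-0.0046) in treated 24 h against 4 h. The Chac2 value ran from -0.034 (without treated 24 h replicate 1) to 0.32 without 1 library. The count of all genes called at 4 h was 1098, and 1953 with the replicate block, 2198 with all 12 libraries in one fit, and 443 to 1760 without 1 library. In that 12-library fit 1 other pathway gene fell at 4 h, Gpx4. In vehicle 24 h against 4 h, 2 to 4 of the 8 genes rose without 1 library, 4 of them without vehicle 4 h replicate 1.

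Same-numbered vehicle and treated libraries deviated from their group means with r of 0.06 to 0.09 at 4 h, where each correlated best with its own number, and of -0.03 to 0.02 at 24 h. The numbers were not taken as pairs because the labels do not say that they mark shared cultures. The 4 h values do not settle whether they do. With the replicate block Gss was called at 4 h (0.31, adjusted p = 0.0299), as was Bach1 (0.37, 0.0195). The causes were not tested. The low counts of Chac2 and Glrx limit the precision of their values.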
